A study of Mus musculus with 9 samples.

Results

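The RNA levels of 10 genes that write, read or erase N6-methyladenosine (m6A) were followed in mouse intestinal organoids. The genes were taken by symbol from the 54838 gene identifiers of the deposited tables: 6 writers (*Mettl3*, *Mettl14*, *Wtap*, *Zc3h13*, *Cbll1* and *Rbm15*), 2 readers (*Ythdf2* and *Ythdc1*) and 2 erasers (*Alkbh5* and *Fto*). All 10 matched 1 identifier each, and all 10 were among the 12702 genes that passed the filter of 1 FPKM in at least 2 libraries. FPKM are fragment numbers scaled to transcript length and to the mapped fragments of the library, so levels can be compared between genes per length.

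m6A is a methyl mark placed on adenosines of messenger RNA in the nucleus. METTL3 carries the catalytic site and works as a heterodimer with METTL14, while WTAP, ZC3H13, CBLL1 and RBM15 belong to the associated subunits that place the heterodimer in nuclear speckles or bring it to its RNA targets. Proteins with a YTH domain bind the mark: YTHDC1 acts in the nucleus on splicing and export, and YTHDF2 acts in the cytoplasm, where it brings methylated transcripts to the deadenylation machinery. ALKBH5 and FTO are oxygenases of the AlkB family that remove methyl groups from RNA. In the intestinal epithelium the pathway is known for its part in maintaining crypt stem cells.

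All 7 RNA-seq libraries came from organoids of *Vil-CreERT2*;*Mettl3 fl/fl* genotype on the C57BL/6 background. The Cre recombinase, fused to an estrogen receptor domain, is driven by the villin promoter and so is active in epithelial cells, and 4-hydroxytamoxifen (4-OHT) lets it excise the floxed part of *Mettl3*. Organoids were exposed for 2 days to 4-OHT or its solvent ethanol (EtOH), and for 5 days to necrostatin-1 (Nec-1), an inhibitor of the kinase RIPK1, or its solvent DMSO. The groups EtOH DMSO, 4-OHT DMSO and EtOH Nec-1 had 2 libraries each, and 4-OHT Nec-1 had 1. Mice in the study were males of 2 to 4 months. No group without Cre received 4-OHT, so the deletion and 4-OHT itself cannot be told apart. No label says that the libraries came from separate cultures or animals, and p-values therefore measure the spread between these libraries, which may be technical.

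The tables give no fragment counts, so the depth behind a value is unknown. The FPKM of a library summed to between 450207 and 498712. The median of the values above 0 was 2.08 FPKM in 4-OHT DMSO replicate 2 and 1.34 to 1.40 in the other libraries. Of the epithelial markers, 8 of 8 stood at 1 FPKM or more in every library, whereas 5 of 5 fibroblast, 3 of 3 endothelial, 3 of 3 smooth muscle and 3 of 3 tuft cell markers stayed under 1 FPKM in every library. Other marker lists moved with 4-OHT, apart from the sum of enterocyte markers, whose ranges overlapped. The summed FPKM of 7 interferon response genes was 7.46 to 7.82 in the 4 EtOH libraries and 60.5 to 713 in the 3 4-OHT libraries, lowest in 4-OHT Nec-1. The sum of 4 Paneth cell markers was 5261 to 6229 under EtOH and 10693 to 14277 under 4-OHT, and that of 3 enteroendocrine markers was 152 to 181 and 299 to 358. Goblet cell markers (4 genes) summed to 1145 to 1301 and 1420 to 1816. The sum of 5 crypt stem cell markers was 32.6 to 47.8 under EtOH and 14.0 to 29.1 under 4-OHT, that of 5 proliferation genes was 147 to 176 and 110 to 146, and that of 5 enterocyte markers was 882 to 1082 and 833 to 1072. Single genes differed from these sums. Of the enterocyte markers, *Sis* (266 to 305 and 106 to 118) and *Alpi* (73.6 to 83.9 and 22.3 to 54.2) were lower under 4-OHT. *Apoa1* (102 to 199 and 179 to 293), *Krt20* (56.5 to 79.5 and 77.9 to 92.2) and *Fabp1* (340 to 471 and 328 to 647) overlapped. The proliferation gene *Mki67* overlapped too (16.8 to 25.2 and 19.9 to 28.2). The sum of 5 immune markers was 1.42 to 4.32 and 6.40 to 8.81. Of the 5, *Cd68* (0.774 to 2.01 under EtOH and 5.69 to 7.72 under 4-OHT) and *Lyz2* (0.237 to 2.52 and 0.344 to 2.63) reached 1 FPKM in any library and the other 3 did not. The part of these cell type and interferon differences in the results for the m6A genes was not tested, and in bulk RNA fewer cells of a type cannot be told apart from less RNA per cell.

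The targeted gene was examined first. *Mettl3* (ENSMUSG00000022160; chromosome 14, 52294841 to 52308741, GRCm38.p6) stood at 2.70 and 2.71 FPKM in EtOH DMSO and 2.41 and 2.47 with EtOH Nec-1, while the 4-OHT DMSO libraries gave 3.72 and 4.14 and 4-OHT Nec-1 gave 3.36. *Mettl3* was thus not lower but higher in every library labelled 4-OHT than in every EtOH library. The value covers the whole gene and gives no reading for single exons, so the floxed part could not be examined and the labels could not be checked by it. *Mettl3* overlaps *Tox4*, and the library kit as labelled does not mark the strand, so reads from the shared stretch can count for either gene. The libraries are called 4-OHT below as labelled.

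In the libraries labelled 4-OHT, both readers and 4 of the 6 writers were at higher levels, and neither eraser passed the test. With limma on log2(FPKM + 1), 6 of the 10 genes rose in 4-OHT DMSO against EtOH DMSO (*Ythdf2*, *Ythdc1*, *Rbm15*, *Zc3h13*, *Wtap* and *Mettl3*) and 0 fell. Of all genes tested, 24.5% rose, 16.7% fell and 41.2% were called in either direction. The log2 fold changes of the 10 genes ran from -0.0074 to 1.46 with a median of 0.50, where the median of all genes was 0.077. *Ythdf2*, *Ythdc1* and *Rbm15* rose by more than 1 log2 unit, as did 6.72% of all genes. For *Rbm15* this depended on the scaling, with 0.89 under median centring and 0.90 under upper quartile scaling. Centring each library on its own median moved the median of all genes from 0.077 to -0.080 and the calls over all genes from 3117 higher and 2120 lower to 2213 and 3187, and left 5 of the 10 genes called, without *Mettl3*. In FPKM, all 3 4-OHT libraries lay above all 4 EtOH libraries for 7 of the 10 genes (the 6 above and *Alkbh5*), and for 30.2% of all genes.

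**Figure D1:**
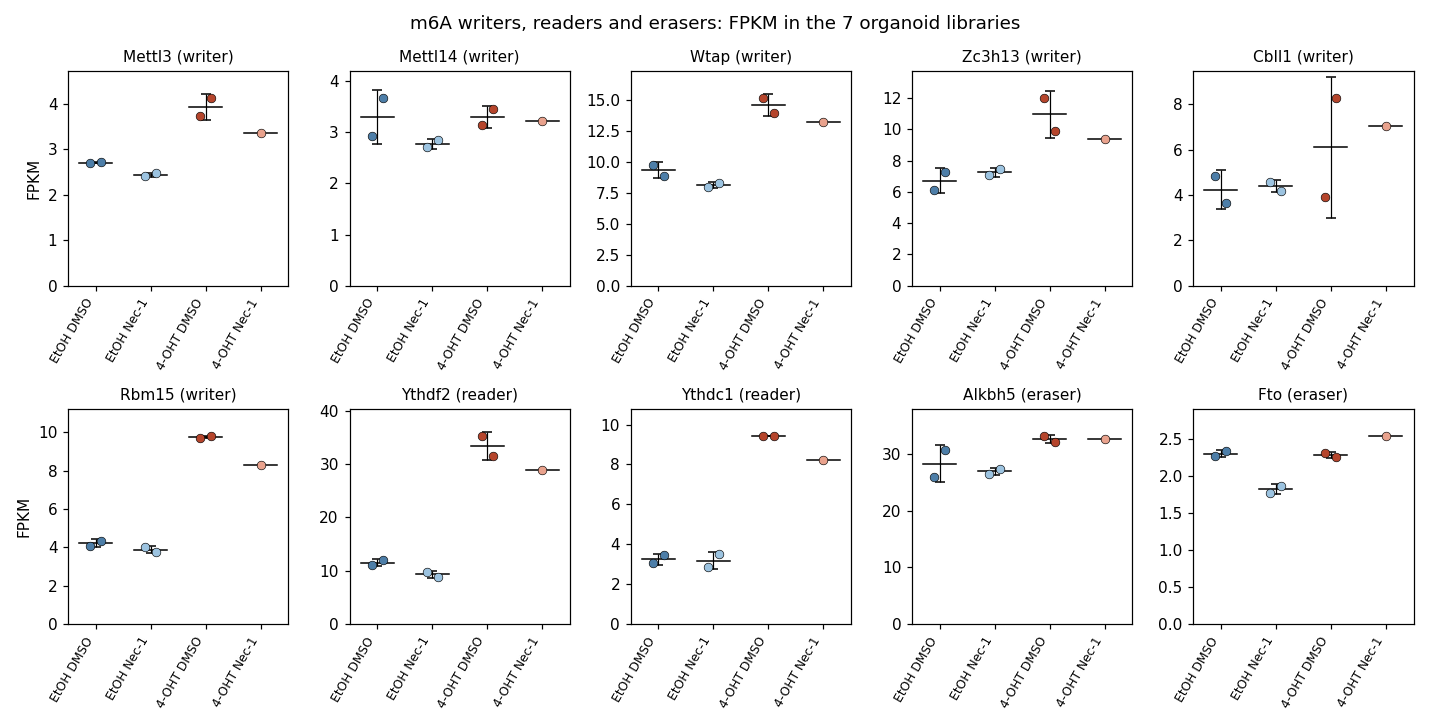
FPKM (vertical axes, each from 0) of the 10 genes in each library, by group. Points are libraries, horizontal lines are group means and error bars are the SD of groups with 2 libraries. *Ythdf2*, *Ythdc1* and *Rbm15* show the widest gap between EtOH and 4-OHT libraries, *Mettl14* and *Fto* overlap, and *Cbll1* spreads from 3.91 to 8.30 within 4-OHT DMSO.

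The 250 bases before a RefSeq transcript start of the 3 genes that rose most are shown because these genes moved together. They are RefSeq sequence of GRCm38.p6, read 5′ to 3′ on the strand of the gene, and capitals mark a GC box (GGGCGG) or a CCAAT box (CCAAT) on either strand.
Ythdf2 promoter: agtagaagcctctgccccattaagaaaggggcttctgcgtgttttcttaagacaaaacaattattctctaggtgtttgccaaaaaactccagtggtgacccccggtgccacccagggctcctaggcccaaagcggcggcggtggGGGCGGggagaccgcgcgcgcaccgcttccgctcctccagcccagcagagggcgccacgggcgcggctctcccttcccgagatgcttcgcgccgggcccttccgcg
Ythdc1 promoter: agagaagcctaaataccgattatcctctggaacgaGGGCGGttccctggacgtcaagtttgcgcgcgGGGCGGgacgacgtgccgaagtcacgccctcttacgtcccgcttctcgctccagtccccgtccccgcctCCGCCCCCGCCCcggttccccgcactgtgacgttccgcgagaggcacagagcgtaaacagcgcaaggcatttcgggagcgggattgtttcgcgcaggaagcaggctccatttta
Rbm15 promoter: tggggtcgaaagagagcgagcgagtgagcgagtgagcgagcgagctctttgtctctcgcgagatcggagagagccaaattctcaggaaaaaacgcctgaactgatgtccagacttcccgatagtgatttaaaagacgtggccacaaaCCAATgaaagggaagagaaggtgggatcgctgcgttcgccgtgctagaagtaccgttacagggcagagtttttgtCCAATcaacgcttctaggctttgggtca
The windows lie at chr4:132212257-132212506 on the minus strand for *Ythdf2*, chr5:86804016-86804265 on the plus strand for *Ythdc1* and chr3:107333290-107333539 on the minus strand for *Rbm15*. Those of *Ythdc1* and *Rbm15* lie within the span of their gene, before a start that is not its outermost. This also holds for the windows of *Mettl3* and *Cbll1* used below, and in part for those of *Zc3h13*, *Fto* and *Wtap*. Boxes before the outermost starts of these genes may therefore be missed.

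The 3 promoters had different letters. The *Ythdf2* window held 1 GC box and the *Ythdc1* window 4, of which a pair lie end to end, while the *Rbm15* window held 2 CCAAT boxes and no GC box. A GC box occurred in 32.7% and a CCAAT box in 33.8% of the 32817 mouse promoter windows of the same length. The CG dinucleotide occurred 22, 30 and 18 times in the 3 windows, against a median of 6 over all windows. Such numbers were not particular to these genes. The windows of the other m6A genes held 13 (*Mettl3*) to 41 (*Wtap*), with 18 in those of *Cbll1* and *Fto*, which were not called. RefSeq windows were found for 9 of the 10 genes, all but *Mettl14*, with 12 windows in all. The core of the interferon-stimulated response element (GAAA and GAAA with any NN between them), present in 2.97% of all windows, and the TATA box (TATAAA), present in 12.4%, were in 0 of these 12, which says only that these letters are not in these windows on either strand. The *Mettl3* and *Fto* windows had neither a GC box nor a CCAAT box, and those of *Zc3h13* (1), *Cbll1* (2 that overlap), *Alkbh5* (2) and *Wtap* (2 or 3, by window) had GC boxes. Matches are a description of the sequence and not of binding.

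Of the catalytic heterodimer, *Mettl3* passed the test and *Mettl14* did not. *Mettl3* was 0.41 ± 0.098 log2 units (SE) higher in 4-OHT DMSO than in EtOH DMSO (95% interval 0.16 to 0.65, limma adjusted p = 0.0231). This call was close to the threshold: it held in 9 of 17 alternatives, with adjusted p between 0.00596 and 0.0908. It was lost with median centring (0.25, adjusted p = 0.0796), upper quartile scaling (0.28, adjusted p = 0.0640), a fit of only the 4 libraries compared (adjusted p = 0.0588) and without EtOH DMSO replicate 1 (0.0689) or 2 (0.0644), EtOH Nec-1 replicate 1 (0.0587) or 2 (0.0589) or 4-OHT DMSO replicate 2 (0.0908), the values in parentheses being limma adjusted p.

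*Mettl14* (ENSMUSG00000028114; chromosome 3, 123368295 to 123385990), the RNA-binding partner of METTL3, stood at 2.92 and 3.67 FPKM in the EtOH DMSO libraries and 2.70 and 2.84 in those of EtOH Nec-1, against 3.15 and 3.44 in 4-OHT DMSO and 3.21 in the 4-OHT Nec-1 library. The EtOH DMSO libraries enclosed all 3 4-OHT libraries. Its difference of 0.0047 ± 0.12 log2 units did not pass the test (95% interval -0.30 to 0.31, limma adjusted p = 0.979) and turned to -0.15 with median centring. The ratio of *Mettl3* to *Mettl14* FPKM within a library, which no scaling of a library can change, was 0.927 and 0.739 in EtOH DMSO and 0.893 and 0.871 with EtOH Nec-1, while the 4-OHT DMSO libraries gave 1.18 and 1.20 and 4-OHT Nec-1 gave 1.05. *Mettl14* was therefore the higher of the pair in all 4 EtOH libraries and *Mettl3* in all 3 4-OHT libraries, a description without a test. The mean ratios of 4-OHT DMSO and EtOH DMSO differed by 0.359, and by 0.265 to 0.453 with single libraries left out.

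*Wtap* (ENSMUSG00000060475; chromosome 17, 12966799 to 12992543), whose protein holds the heterodimer in nuclear speckles, was the most abundant of the 6 writers in every library. It stood at 9.81 and 8.90 FPKM in the EtOH DMSO libraries and 7.99 and 8.33 in those of EtOH Nec-1, against 15.2 and 14.0 in 4-OHT DMSO and 13.3 in the 4-OHT Nec-1 library. The groups did not overlap. *Wtap* rose by 0.59 ± 0.093 log2 units (limma adjusted p = 0.00613) and was called in all 17 alternatives.

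*Zc3h13* (ENSMUSG00000022000; chromosome 14, 75284306 to 75344433) encodes a zinc finger subunit that keeps the complex in the nucleus. It measured 6.15 and 7.30 FPKM in EtOH DMSO and 7.05 and 7.45 with EtOH Nec-1, while the 4-OHT DMSO libraries gave 12.0 and 9.90 and 4-OHT Nec-1 gave 9.39, so that each 4-OHT library again exceeded each EtOH library. *Zc3h13* rose by 0.63 ± 0.13 log2 units (limma adjusted p = 0.0142), a call held in 16 of 17 alternatives and lost without EtOH DMSO replicate 1 (0.52, adjusted p = 0.0642). A pseudogene, *Gm46470*, overlaps it.

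*Rbm15* (ENSMUSG00000048109; chromosome 3, 107305511 to 107334460) encodes an RNA-binding adaptor that brings the complex to its targets. Its FPKM was 4.05 and 4.35 in the EtOH DMSO libraries and 4.00 and 3.73 in those of EtOH Nec-1, against 9.72 and 9.81 in 4-OHT DMSO and 8.30 in the 4-OHT Nec-1 library. The highest EtOH library was well under the lowest 4-OHT library, and the rise of 1.05 ± 0.088 log2 units (limma adjusted p = 0.00109) was the largest among the writers and was called in all 17 alternatives, at 0.89 to 1.20 log2 units. *Rbm15* overlaps *Slc16a4*. Its paralog *Rbm15b*, which acts in the same way, did not pass the test (0.083 ± 0.10 log2 units, 95% interval -0.17 to 0.33, limma adjusted p = 0.544). The ratio of *Rbm15* to *Rbm15b* was 0.848 to 0.982 in the EtOH libraries and 1.76 to 1.98 in the 4-OHT libraries.

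*Cbll1* (ENSMUSG00000020659; chromosome 12, 31484829 to 31500676), the E3 ubiquitin ligase also called Hakai, had the widest spread between libraries, relative to its mean, in both DMSO groups. It stood at 4.85 and 3.63 FPKM in EtOH DMSO and 4.58 and 4.20 with EtOH Nec-1, while the 4-OHT DMSO libraries gave 3.91 and 8.30 and 4-OHT Nec-1 gave 7.04. One 4-OHT DMSO library lay within the EtOH range and the other, with 4-OHT Nec-1, above it. The difference of 0.38 ± 0.31 log2 units did not pass the test (limma adjusted p = 0.370), was called without 4-OHT DMSO replicate 1 (0.84, adjusted p = 0.0206) and turned to -0.084 without replicate 2 (adjusted p = 0.735). *Cbll1* overlaps the long non-coding RNA *Gm40362*.

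The readers gave the largest log2 fold changes of the 10 genes. *Ythdf2* (ENSMUSG00000040025; chromosome 4, 132184916 to 132212256) stood at 11.0 and 12.0 FPKM in the EtOH DMSO libraries and 9.74 and 8.88 in those of EtOH Nec-1, against 35.3 and 31.5 in 4-OHT DMSO and 28.8 in the 4-OHT Nec-1 library. Its rise of 1.46 ± 0.10 log2 units (95% interval 1.21 to 1.71, limma adjusted p = 0.000645) was the largest of the 10 genes and the 388th largest log2 fold change of all 12702 genes. It was called in all 17 alternatives, at 1.30 to 1.54 log2 units.

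*Ythdc1* (ENSMUSG00000035851; chromosome 5, 86803980 to 86836659) stood at 3.05 and 3.45 FPKM in EtOH DMSO and 2.88 and 3.49 with EtOH Nec-1, while the 4-OHT DMSO libraries gave 9.41 and 9.43 and 4-OHT Nec-1 gave 8.24. All 3 4-OHT libraries were far above the EtOH range. The rise of 1.30 ± 0.11 log2 units (limma adjusted p = 0.00117) was called in all 17 alternatives, and neither reader overlaps another RefSeq gene.

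Of the other YTH genes, *Ythdf1* rose, *Ythdc2* passed the test with a call that most alternatives lost, and *Ythdf3* did not pass. *Ythdf1*, whose protein is known for promoting translation of methylated transcripts, rose by 1.04 ± 0.14 log2 units (limma adjusted p = 0.00379), from 9.51 to 14.5 FPKM in the EtOH libraries to 24.6 to 30.7 in the 4-OHT libraries. *Ythdf3*, the remaining cytoplasmic paralog, gave -0.034 ± 0.13 log2 units (95% interval -0.35 to 0.28, limma adjusted p = 0.851), at 16.8 to 23.4 FPKM under EtOH and 19.2 to 21.9 under 4-OHT. The ratio of *Ythdf2* to *Ythdf3* within a library was 0.469 to 0.635 under EtOH and 1.34 to 1.64 under 4-OHT, and that of *Ythdf1* to *Ythdf3* was 0.516 to 0.766 and 1.15 to 1.40. *Ythdf3* was thus the highest of the 3 cytoplasmic YTH genes in all 4 EtOH libraries and the lowest in all 3 4-OHT libraries. *Ythdc2*, which encodes a helicase with a YTH domain, rose by 0.38 ± 0.097 log2 units (limma adjusted p = 0.0271), a call held in 7 of 17 alternatives. It was lost with median centring (0.23), upper quartile scaling (0.26), the replicate block, a fit of only the 4 libraries and without any single library other than 4-OHT Nec-1, with limma adjusted p up to 0.0975. The ratio of *Ythdc1* to *Ythdc2* was 1.19 to 1.56 under EtOH and 2.33 to 2.70 under 4-OHT. These ratios, and *Rbm15b*, *Ythdf3* and *Ythdc2* as partners, were chosen after the values were seen, and the differences between paralogs were not tested.

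**Figure D2:**
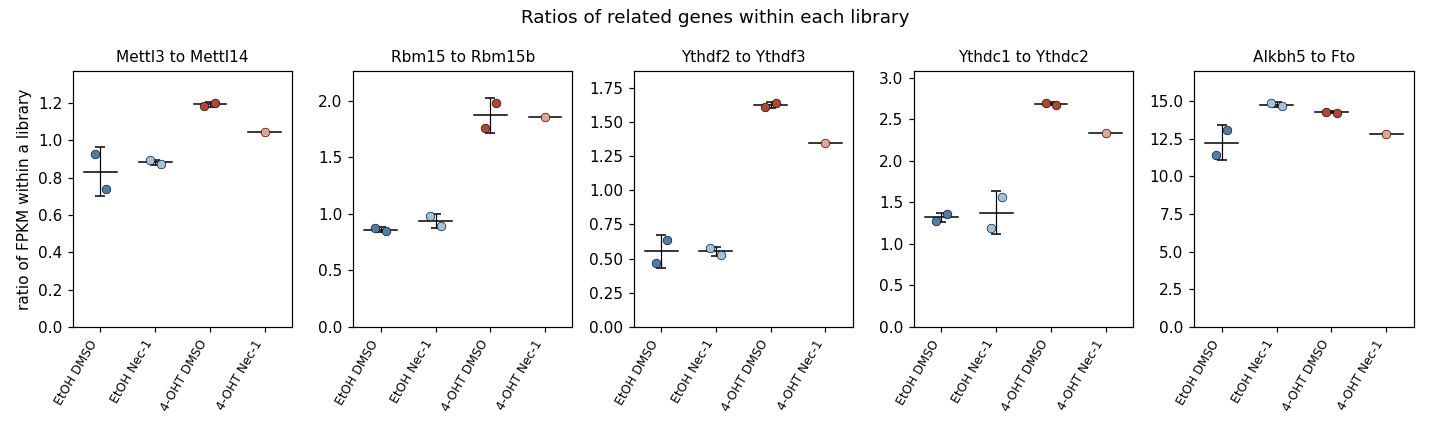
Ratio of the FPKM of related genes within each library (vertical axes, each from 0), by group. Points are libraries, horizontal lines are group means and error bars are the SD of groups with 2 libraries. The ratios to *Mettl14*, *Rbm15b*, *Ythdf3* and *Ythdc2* separate the 4 EtOH from the 3 4-OHT libraries, and that of *Alkbh5* to *Fto* does not.

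Neither eraser passed the test. *Alkbh5* (ENSMUSG00000042650; chromosome 11, 60537683 to 60558512), a nuclear demethylase, stood at 25.9 and 30.6 FPKM in the EtOH DMSO libraries and 26.4 and 27.4 in those of EtOH Nec-1, against 33.2 and 32.2 in 4-OHT DMSO and 32.6 in the 4-OHT Nec-1 library. The ranges did not overlap, but the difference of 0.21 ± 0.10 log2 units (95% interval -0.044 to 0.46) had a limma adjusted p of 0.153. It was called in 1 of 17 alternatives, a model with additive effects of 4-OHT and Nec-1 over all 7 libraries (limma adjusted p = 0.0423).

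*Fto* (ENSMUSG00000055932; chromosome 8, 91313367 to 91668433) had the lowest mean of the 10 genes in every group. It stood at 2.27 and 2.34 FPKM in EtOH DMSO and 1.78 and 1.87 with EtOH Nec-1, while the 4-OHT DMSO libraries gave 2.32 and 2.26 and 4-OHT Nec-1 gave 2.55. The 4-OHT DMSO values lay at those of EtOH DMSO, with a difference of -0.0074 ± 0.098 log2 units (95% interval -0.25 to 0.24, limma adjusted p = 0.959), and *Fto* was called in 0 of 17 alternatives. It overlaps the long non-coding RNA *4831440D22Rik*. The ratio of *Alkbh5* to *Fto* was 11.4 to 14.9 under EtOH and 12.8 to 14.3 under 4-OHT.

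The order of the levels changed between the groups. In EtOH DMSO, *Alkbh5* led with a mean of 28.3 FPKM, followed by *Ythdf2* (11.5), *Wtap* (9.36), *Zc3h13* (6.72), *Cbll1* (4.24), *Rbm15* (4.20), *Mettl14* (3.29), *Ythdc1* (3.25), *Mettl3* (2.71) and *Fto* (2.31). The libraries of *Cbll1* and *Rbm15* overlapped, as did those of *Mettl14* and *Ythdc1*, and all other neighbors in this order did not. In 4-OHT DMSO, *Ythdf2* (33.4 FPKM) and *Alkbh5* (32.7) led with overlapping libraries, *Wtap* (14.6), *Zc3h13* (11.0), *Rbm15* (9.77) and *Ythdc1* (9.42) followed without overlap between neighbors, and *Cbll1* (6.10) overlapped with *Mettl3* (3.93), ahead of *Mettl14* (3.29) and *Fto* (2.29). With EtOH Nec-1 the order was that of EtOH DMSO except that *Ythdc1* (3.18) stood above *Mettl14* (2.77). In the 4-OHT Nec-1 library the order was that of 4-OHT DMSO except that *Alkbh5* (32.6 FPKM) led *Ythdf2* (28.8).

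Nec-1 was next examined within each background. In EtOH organoids, limma called 0 of the 10 genes for EtOH Nec-1 against EtOH DMSO, where 0.22% of all genes were called. An unadjusted limma p under 0.05 was reached by 1689 of the 12702 genes tested and, of the 10, by 1 gene. That gene was *Ythdf2*, at -0.28 ± 0.10 log2 units (95% interval -0.53 to -0.026, limma adjusted p = 0.342). Differences ran from -0.28 to 0.099, with a median of -0.10 against -0.094 for all genes. Both EtOH Nec-1 libraries lay below both EtOH DMSO libraries for 6 of the 10 genes (*Mettl3*, *Mettl14*, *Wtap*, *Rbm15*, *Ythdf2* and *Fto*) and for 39.1% of all genes. *Fto* gave -0.23 ± 0.098 log2 units (limma adjusted p = 0.403).

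In 4-OHT organoids the single Nec-1 library was assumed to vary like the groups of 2. Limma called 0 of the 10 genes for 4-OHT Nec-1 against 4-OHT DMSO, where 1.84% of all genes were called. Of the 10, 0 reached an unadjusted limma p under 0.05, where 2099 of the 12702 genes tested did. The differences ran from -0.21 (*Rbm15*, 95% interval -0.48 to 0.059) to 0.25 (*Cbll1*, 95% interval -0.70 to 1.20), with a median of -0.15 against -0.081 for all genes. The library stood below both 4-OHT DMSO libraries for 6 genes (*Mettl3*, *Wtap*, *Zc3h13*, *Rbm15*, *Ythdf2* and *Ythdc1*, the 6 that rose with 4-OHT) and for 49.3% of all genes. This comparison shares the 4-OHT DMSO libraries with the comparison in which those genes rose, so the count cannot be read beside that rise.

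The 4-OHT difference was also measured under Nec-1, between groups other than those compared first. Both comparisons came from the fit of all 7 libraries and shared its estimate of the spread, so their p-values are not independent. Only 1 library stood for 4-OHT Nec-1. *Ythdf2* rose by 1.53 ± 0.12 log2 units in 4-OHT Nec-1 against EtOH Nec-1 (limma adjusted p = 0.00385), *Ythdc1* by 1.15 ± 0.14 (adjusted p = 0.00734), *Rbm15* by 0.93 ± 0.11 (adjusted p = 0.00694) and *Wtap* by 0.64 ± 0.11 (adjusted p = 0.0180). These 4 of the 10 genes were called higher and 0 lower, where 13.9% of all genes rose and 21.1% were called. *Mettl3* (0.34 ± 0.12, limma adjusted p = 0.10), *Zc3h13* (0.33 ± 0.16, adjusted p = 0.188) and *Fto* (0.33 ± 0.12, adjusted p = 0.111) did not pass. The count fell to 3 without EtOH Nec-1 replicate 1, where *Wtap* was lost (limma adjusted p = 0.0973), and to 2 without replicate 2, where *Rbm15* (0.0538) and *Wtap* (0.0849) were lost. The interferon response sum was 60.5 in the 4-OHT Nec-1 library and 483 and 713 in the 4-OHT DMSO libraries. *Ythdf2* was 28.8 against 35.3 and 31.5 FPKM in the same libraries. Any link between the interferon genes and *Ythdf2* was not tested.

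The difference of the Nec-1 effects between 4-OHT and EtOH organoids was tested as an interaction. It was called by limma for 0 of the 10 genes, where 0.0551% of all genes were called. Of the 10, 0 reached an unadjusted limma p under 0.05, where 1059 of the 12702 genes tested did. The estimates ran from -0.30 (*Zc3h13*, 95% interval -0.81 to 0.21) to 0.34 (*Fto*, 95% interval -0.054 to 0.73), with a median of 0.055 against 0.019 for all genes. With 1 library in 4-OHT Nec-1 the intervals were wide: that of *Ythdf2* ran from -0.32 to 0.47.

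**Figure D3:**
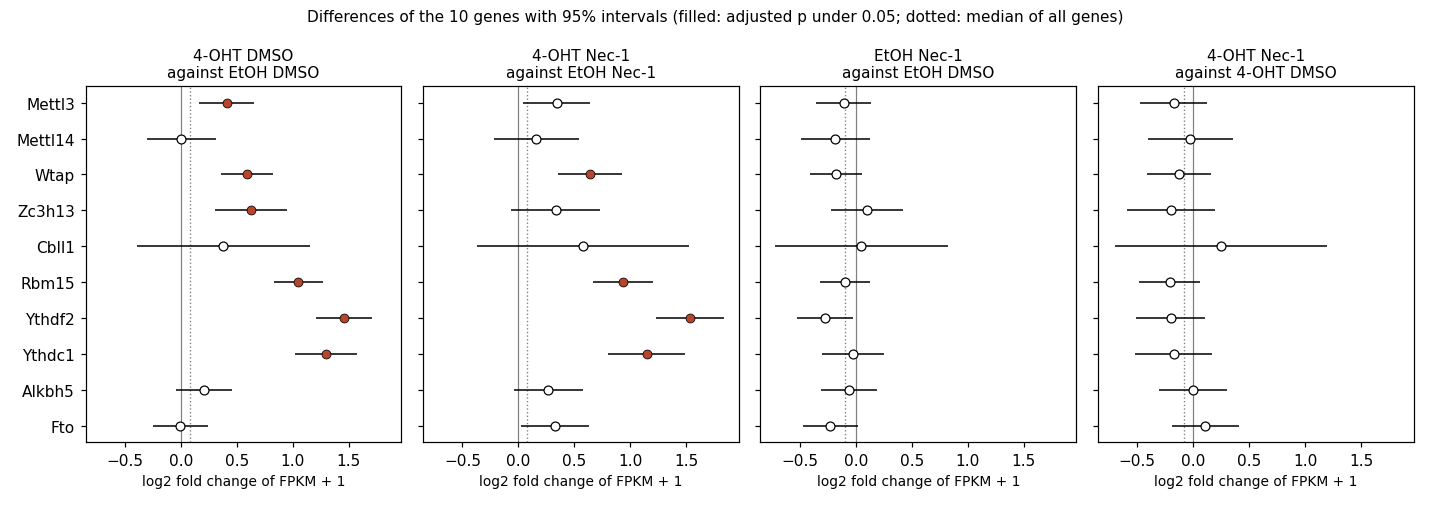
Log2 fold change of FPKM + 1 (horizontal axes) with its 95% interval for the 10 genes in 4 comparisons. Filled points have a limma adjusted p under 0.05, the solid line is 0 and the dotted line is the median of all 12702 genes. In both comparisons of 4-OHT with EtOH the readers, *Rbm15* and *Wtap* lie to the right, and in both comparisons of Nec-1 with DMSO all points are open.

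The other genes of m6A were examined as lists in 4-OHT DMSO against EtOH DMSO, where 24.5% of all genes rose and 16.7% fell. Of 8 other writers, 2 rose and 1 fell, with a median of 0.14. *Mettl16*, which methylates the RNA of the S-adenosylmethionine synthetase gene *Mat2a* and U6 RNA, rose by 0.98 ± 0.13 log2 units (limma adjusted p = 0.00343), from 1.52 and 1.71 to 4.61 and 3.72 FPKM, with 2.24 in 4-OHT Nec-1. *Virma*, the scaffold subunit that the members listed above assemble on, rose by 0.69 ± 0.12 (adjusted p = 0.00879), from 4.61 and 5.68 to 9.34 and 8.49 FPKM. *Mettl5*, which methylates ribosomal RNA, fell by 0.74 on the log2 scale (SE 0.15, limma adjusted p = 0.0155), from 8.33 and 7.03 to 3.60 and 4.87 FPKM. Its call was lost with no filter (limma adjusted p = 0.0555) and without EtOH DMSO replicate 1 (0.0778), while *Mettl16* and *Virma* were called in all 17 alternatives.

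Other proteins that bind m6A or methylated transcripts went both ways. Of 14 genes 13 were tested, of which 4 rose and 4 fell with a median of -0.034, and *Igf2bp1* was under the filter. With median centring 2 rose and 5 fell. With 1 FPKM required in every library, 12 were tested, of which 4 rose and 3 fell. Beside *Ythdf1*, *Hnrnpa2b1*, a nuclear RNA-binding protein of splicing, rose by 0.77 ± 0.10 log2 units (limma adjusted p = 0.00379), from 80.5 and 89.6 to 155 and 136 FPKM. *Rbmx*, a related splicing factor with retrocopies that could share its reads, fell by 1.21 (SE 0.13, limma adjusted p = 0.00208), from 9.57 and 10.9 to 3.72 and 3.96 FPKM. *Igf2bp3*, which stabilizes transcripts, reached 1 FPKM only in the EtOH DMSO libraries. It thus passed the filter through the group where it is high, which favors a fall, and its call is given only as a description. EtOH Nec-1 stood at 0.345 and 0.813 FPKM and 4-OHT Nec-1 at 0.354. *Igf2bp3* was at 1.22 and 1.07 FPKM in EtOH DMSO and at 0.131 and 0.379 in 4-OHT DMSO, a fall of 0.78 (SE 0.20, limma adjusted p = 0.0286) at a low level that was called in 12 of 16 alternatives. It was lost with no filter and without EtOH DMSO replicate 1 or 2 or 4-OHT DMSO replicate 1, with limma adjusted p up to 0.124.

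S-adenosylmethionine is the methyl donor of METTL3. Of 8 genes for its synthesis and for the removal of its product, relatives (*Ahcyl1* and *Ahcyl2*) included, 6 were tested. *Mat1a* and *Mtr* were under the filter. Of the 6, 0 rose and 2 fell, with a median of -0.46. Neither of the 2 is a synthesis gene. The synthetase gene *Mat2a* did not pass the test (0.78 ± 0.38 log2 units, limma adjusted p = 0.149), at 13.8 and 18.5 FPKM in EtOH DMSO and 42.6 and 18.6 in 4-OHT DMSO. *Mat2b*, for its regulatory subunit, did not pass either (-0.17 ± 0.10, limma adjusted p = 0.221). *Ahcyl1*, a relative of the hydrolase that clears S-adenosylhomocysteine, fell by 0.94 (SE 0.082, limma adjusted p = 0.00119), from 46.8 and 49.8 to 23.7 and 25.7 FPKM. The hydrolase gene *Ahcy* itself fell by 0.74 (SE 0.092, limma adjusted p = 0.00296), from 94.0 and 88.9 to 57.8 and 50.9 FPKM. Both falls were called in all 17 alternatives.

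Few of the relatives of the erasers and of the deadenylation genes passed the test. Of 7 other AlkB genes 1 rose and 1 fell, with a median of 0.25. *Alkbh4* rose by 0.54 ± 0.14 (limma adjusted p = 0.0316), a call held in 8 of 17 alternatives, and *Alkbh7* fell by 0.53 (SE 0.14, limma adjusted p = 0.0339), held in 9 of 17. Of 13 genes of the CCR4-NOT and PAN2-PAN3 deadenylases, with which YTHDF2 acts, 1 rose and 1 fell, with a median of -0.16, and 1 rose and 4 fell with median centring. *Cnot8*, a catalytic subunit, rose by 0.44 ± 0.088 (limma adjusted p = 0.0131) and *Cnot10* fell by 0.48 (SE 0.099, adjusted p = 0.0147). The call of *Cnot8* was lost with upper quartile scaling (limma adjusted p = 0.0514) and without EtOH DMSO replicate 1 (0.0543), and that of *Cnot10* without EtOH DMSO replicate 2 (0.0572).

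**Figure D4:**
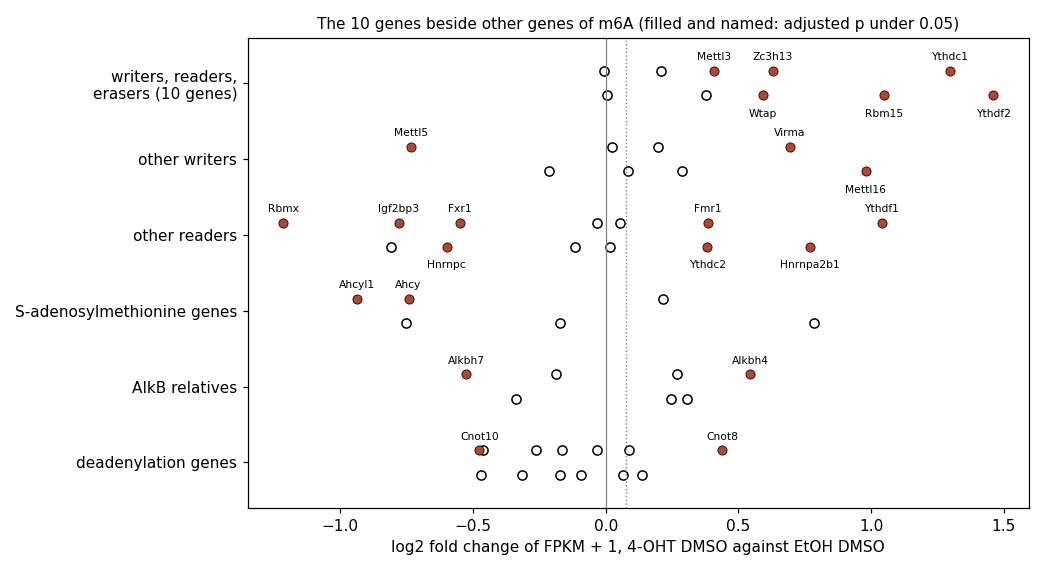
Log2 fold change of FPKM + 1 in 4-OHT DMSO against EtOH DMSO (horizontal axis) for the 10 genes and 5 lists of related genes (rows). Each point is a gene, filled and named where its limma adjusted p was under 0.05, the solid line is 0 and the dotted line is the median of all genes. Of the 10 genes, the 6 filled points all lie to the right of 0, while of the filled points of the other readers 4 lie to the right and 4 to the left (2 and 5 with median centring). Of those to the left, *Igf2bp3* passed the filter only through the EtOH DMSO libraries.

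Under Nec-1 the lists were read in the same way. In 4-OHT Nec-1 against EtOH Nec-1, 1 of the 8 other writers rose and 0 fell, 2 of the 13 other readers rose and 2 fell, 0 of the 6 S-adenosylmethionine genes rose and 2 fell, 0 of the 7 AlkB genes rose and 1 fell, and 0 of the 13 deadenylation genes were called, where 13.9% of all genes rose and 7.16% fell. In both comparisons of Nec-1 with DMSO, limma called 0 of the 47 genes tested in the 5 lists, where 0.22% and 1.84% of all genes were called. An unadjusted limma p under 0.05 was reached by 6 of the 47 for EtOH and 3 for 4-OHT organoids. Of all 12702 genes, 1689 and 2099 reached it.

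The profile of *Mettl3* over the 7 libraries was compared with that of all genes, as the root mean square difference of log2(FPKM + 1) centered on each gene. The nearest were *Irf3* (0.0257), *Ddost* (0.0308), *Rbms2* (0.0318), *Ltk* (0.0336) and *Zfp111* (0.0340), where the median gene was at 0.285. *Irf3*, a transcription factor of the interferon response, stood at 10.6 and 10.2 FPKM in EtOH DMSO and at 12.9 and 14.6 in 4-OHT DMSO. Of the 9 other m6A genes the nearest to *Mettl3* was *Alkbh5* at 0.124, the 1229th of all genes, and the farthest was *Ythdf2* at 0.568. The difference was not scaled to the size of change, so it does not rank the genes by the shape of their profile. *Ythdf2*, like *Mettl3*, was higher in every 4-OHT than in every EtOH library. *Fto* (0.168) and *Mettl14* (0.179) were not, yet lay nearer.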

How the data were processed

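Bulk RNA-seq was measured in 7 organoid libraries of 4 groups, and the 2 CUT&Tag samples of the series were not analysed here. The authors deposited their values as FPKM for Ensembl mouse genes. The submitters' processing notes name HISAT2 2.1.0, StringTie 1.3.3b and the mm10 build, and the strand setting of counting is not given in the sources used here. FPKM are already scaled to library size and transcript length, so that scaling choices move all genes of a library together. Groups were taken from the labels. Of 54838 identifiers, 54723 matched a symbol, and columns of 0 samples were left unmapped.

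limma 3.58.1 in R 4.3.3, with a mean-variance trend, was applied to log2(FPKM + 1) of the 12702 genes that reached 1 FPKM in 2 or more libraries, with 1 mean per group over all 7 libraries (3 residual degrees of freedom) and Benjamini-Hochberg adjustment over all genes tested at a threshold of 0.05. The script was tested on simulated data. Because 1 is added, fold changes of low genes are understated on this scale. Alternatives were no trend, pseudocounts of 0.1 and 0.25, other filters, median centring, upper quartile scaling, replicate number as a block, an additive model, only the 4 libraries compared, and each library left out. Tables were made with Python 3.11.15, pandas 2.3.3 and numpy 2.4.6. Positions, overlapping genes and promoters came from RefSeq on GRCm38.p6, the assembly of mm10.

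The genes named are the 10 m6A genes, up to 4 genes per list of other m6A genes with the largest called changes in every pairing of libraries, and the 5 genes nearest to *Mettl3*. *Rbm15b*, *Ythdf3* and *Ythdc2* were added after their values were seen. The members and lists, cell type markers included, were chosen with earlier results of these data known.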

Additional observations from a re-analysis of the deposited data

How the results depend on the processing

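Under the alternatives, the number of the 10 genes called in 4-OHT DMSO against EtOH DMSO was 5 to 7 (7 in the additive model) and 4 to 7 with single libraries left out. It was 0 in all alternatives for both Nec-1 comparisons and their difference, and 2 to 4 for 4-OHT Nec-1 against EtOH Nec-1 with single libraries left out. Over all 12702 genes, calls in 4-OHT DMSO against EtOH DMSO moved too. They numbered 5237 in the main fit, 5400 with median centring, 6297 in the additive model and 3958 with only the 4 libraries. Of 750 values of the 10 genes, 703 kept their direction and side of the threshold. Of the rest, 12 were no longer called, 2 became called and 33 changed sign, and the cause was not tested. The sign changes were in genes that were not called. In 4-OHT DMSO against EtOH DMSO, *Mettl14* was -0.15 with median centring and -0.12 with upper quartile scaling, *Rbm15b* -0.074 and -0.055 with the same settings, and *Fto* 0.13 and *Ythdf3* 0.11 in the additive model. With single libraries left out, *Mettl14* ran from -0.12 to 0.13, *Fto* from -0.022 to 0.0075, *Ythdf3* from -0.18 to 0.11 and *Cbll1* from -0.084 to 0.84. In EtOH Nec-1 against EtOH DMSO, median centring gave *Ythdc1* 0.074, *Alkbh5* 0.035 and *Rbm15* 0.0024, and upper quartile scaling *Ythdc1* 0.058 and *Alkbh5* 0.040. Left-out libraries gave *Ythdc1* -0.13 to 0.081, *Alkbh5* -0.18 to 0.050, *Zc3h13* -0.0080 to 0.21 and *Cbll1* -0.12 to 0.22. In 4-OHT Nec-1 against 4-OHT DMSO, *Mettl14* and *Alkbh5* were 0.088 and 0.11 with median centring, 0.076 and 0.13 with upper quartile scaling, and -0.076 to 0.023 and -0.024 to 0.019 with left-out libraries, where *Cbll1* ran from -0.21 to 0.71. For the difference of the Nec-1 effects, left-out libraries gave *Wtap* -0.016 to 0.11, *Alkbh5* -0.053 to 0.18, *Cbll1* -0.26 to 0.66 and *Ythdf2* -0.0052 to 0.15. No difference shared by replicate number was seen: differences between replicates 1 and 2 correlated across genes at -0.040, 0.0065 and -0.012 between groups. Whether the libraries were paired cannot be read from this, and the labels do not say. With replicate number as a block, 6 genes were called in 4-OHT DMSO against EtOH DMSO, 4 in 4-OHT Nec-1 against EtOH Nec-1 and 0 in the others, and *Mettl14* and *Alkbh5* were 0.041 and 0.037 in 4-OHT Nec-1 against 4-OHT DMSO. Over all genes, calls for EtOH Nec-1 against EtOH DMSO were 28, against 8 without a filter, 43 with upper quartile scaling, 79 with only the 4 libraries and 9 to 75 with left-out libraries. For 4-OHT Nec-1 they were 234 against 4-OHT DMSO (573 without a filter, 90 with the block, 34 to 662 with left-out libraries) and 2681 against EtOH Nec-1 (1617 with the block, 442 to 3071 with left-out libraries), and for the difference of the Nec-1 effects 7 (219 without a filter, 3 with 1 FPKM in every library, 4 with the block, 1 to 337 with left-out libraries).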
